A study of Rattus norvegicus with 5 samples.

Results

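The Bcl2 family decides whether a cell opens its outer mitochondrial membrane and dies by apoptosis, and 10 of its genes were followed here: Bcl2, Bcl2l1, Mcl1, Bcl2a1, Bax, Bak1, Bcl2l11, Bad, Bid and Bbc3. They were taken by symbol from the combined gene-level table of 33014 genes, and all 10 symbols were found. The material was 5 libraries of 1 group: wild-type (WT) Sprague Dawley rat dorsal root ganglion cells of postnatal day 10, cultured for 8 days, with phosphate-buffered saline (PBS) given after 1 day. Ganglia were pooled from the 10 pups of a litter before the cells were dispersed. Each poly-A selected library was made from 3 pooled wells, seeded with 5000 cells each and lysed in TRIzol. The labels do not say whether the 5 libraries share a litter or cell preparation, so the spread between them may be technical, and p-values measure only that spread.

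Family members carry Bcl2 homology (BH) motifs and act by binding each other. Anti-apoptotic members (Bcl2, Bcl-xL from Bcl2l1, Mcl1 and A1 from Bcl2a1) hold the effectors Bax and Bak (from Bak1) in check, while effectors that escape this hold form pores that release cytochrome c. BH3-only members (Bim from Bcl2l11, Bad, Bid and Puma from Bbc3) relay stress by occupying the anti-apoptotic members or by activating the effectors. In sensory neurons the balance is known from nerve growth factor withdrawal, which kills immature neurons through Bax.

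Levels are in TPM, the authors' gene-level values, which correct for transcript length and sum to 1000000 in every library. Libraries held between 21596608 and 27913098 estimated reads, and no pair of libraries agreed within counting noise. All 5 neuron, 4 Schwann cell, 3 satellite glia, 5 fibroblast and 7 macrophage markers examined reached 1 TPM in every library. So did 1 of 3 endothelial, 2 of 5 neutrophil and 0 of 5 lymphocyte markers. Of all genes 41.3% reached this level, so reaching it is no check of the ganglion label. Summed levels ranged over 5378 to 5748 TPM for neuron, 4674 to 5195 TPM for Schwann cell and 1195 to 1894 TPM for macrophage markers. Within the neuron sum, Prph had a mean of 2212 TPM, of which only 445 TPM came from transcripts matched to its symbol. The libraries hold RNA of several cell types, so they do not show which cell expressed a member. More cells of a type and more RNA per cell cannot be told apart.

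Promoter windows of 3 anti-apoptotic genes are shown first. These genes were picked as the most abundant (Mcl1), the least abundant (Bcl2) and the most variable (Bcl2a1) of that class. Each window runs from 250 bases before to 50 after the start of the gene, 5′ to 3′, from RefSeq on build GRCr8, and capitals mark 4 searched motifs on either strand: the TATA box as TATAAA, the GC box as GGGCGG, the CAAT box as CCAAT and the cAMP response element as TGACGTCA. They were chosen after the levels were seen.
Mcl1 promoter, GRCr8 chr2:185907918-185908217, plus strand: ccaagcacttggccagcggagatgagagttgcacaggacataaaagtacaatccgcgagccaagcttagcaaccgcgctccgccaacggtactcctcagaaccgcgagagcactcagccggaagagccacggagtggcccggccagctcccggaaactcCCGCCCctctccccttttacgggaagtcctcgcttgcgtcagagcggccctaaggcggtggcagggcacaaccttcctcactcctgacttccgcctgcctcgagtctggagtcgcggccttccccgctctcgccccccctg
Bcl2 promoter, GRCr8 chr13:23366851-23367150, minus strand: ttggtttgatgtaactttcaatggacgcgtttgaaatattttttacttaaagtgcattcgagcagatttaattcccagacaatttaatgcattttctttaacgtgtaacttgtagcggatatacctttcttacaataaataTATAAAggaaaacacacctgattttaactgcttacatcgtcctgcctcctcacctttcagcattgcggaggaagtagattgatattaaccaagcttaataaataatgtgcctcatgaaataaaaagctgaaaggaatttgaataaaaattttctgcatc
Bcl2a1 promoter, GRCr8 chr8:98596556-98596855, plus strand: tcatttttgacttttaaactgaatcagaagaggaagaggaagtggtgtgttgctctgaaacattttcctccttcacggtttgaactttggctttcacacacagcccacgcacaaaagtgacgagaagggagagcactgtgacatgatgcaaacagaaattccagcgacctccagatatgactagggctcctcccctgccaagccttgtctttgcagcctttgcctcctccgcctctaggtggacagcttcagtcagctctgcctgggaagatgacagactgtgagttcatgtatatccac

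The 3 windows, placed by the annotated start of each gene, differed in composition. Whether that start is the main one was not examined, so the Bcl2 window or another may lie away from the main promoter. The Mcl1 window had 64.3% G and C and 1 GC box, the Bcl2 window 32.7% G and C and 1 TATA box, and the Bcl2a1 window 48.7% G and C and no match to the 4 motifs. Over all 33469 rat promoter windows of the same length, the median G and C content was 51.7%, 33.1% of windows held the GC box, 14.2% the TATA box, 37.5% the CAAT box and 1.83% the cAMP response element. The table held 11 windows for 8 members, 4 of them for Bcl2l1, and none for Bax and Bbc3. Among the 11, 5 held the GC box, 3 the CAAT box, 1 the TATA box and 0 the cAMP response element. The Bcl2l1 windows with the CAAT box overlapped and shared a site, so the 11 windows are not independent. The Bcl2l11 window was the richest in G and C, at 71.0%, with 2 GC boxes. A match describes these letters alone and marks no binding site.

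All 10 members were expressed in every library, over a 24.2-fold span of mean TPM. Each had at least 1 TPM in all 5 libraries, the level at which a gene was called detected, which 41.3% of all genes in the table reached. Bax led at 231 ± 10.5 TPM (SD, n = 5, as for every value below), and Bcl2l11 was lowest at 9.57 ± 0.522 TPM. The median member stood at 45.1 TPM, against 20.5 TPM for the median of the 13635 detected genes.

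**Figure D1:**
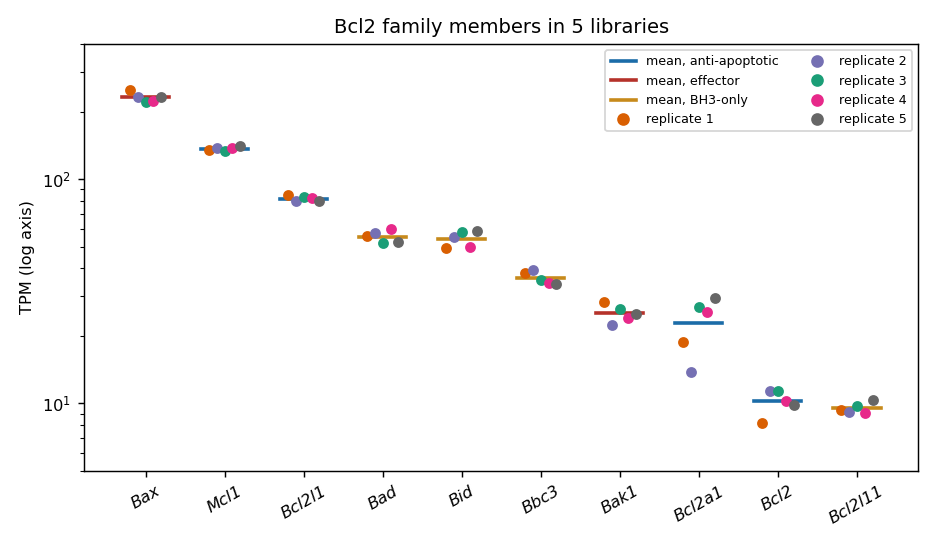
TPM (log axis) of the 10 members, each point 1 library and each bar the mean of 5 libraries, coloured by role. Bax lies above all other members and Bcl2 and Bcl2l11 lie lowest, near 10 TPM, while the points of Bcl2a1 spread from 13.9 to 29.6 TPM.

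Among anti-apoptotic members, Mcl1 and Bcl2l1 held most of the transcripts and Bcl2 itself little. Mcl1, a short-lived guardian whose protein is continually degraded, was at 135, 137, 133, 138 and 140.1 TPM in replicates 1 to 5. These values were close together, with a ratio of 1.05 between the highest and the lowest library. Bcl2l1, whose main protein Bcl-xL protects mature neurons, was at 84.7, 79.4, 83.1, 82.3 and 79.6 TPM. Its libraries were likewise close, with a ratio of 1.07. Bcl2, the founding member of the family, was at 8.20, 11.3, 11.4, 10.3 and 9.80 TPM, lowest in replicate 1. Bcl2a1, the A1 gene of white blood cells, was at 18.7, 13.9, 26.8, 25.4 and 29.6 TPM, so that its highest library exceeded its lowest 2.13-fold.

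Mcl1 made up 54.3% ± 1.60 of the summed TPM of the 4 anti-apoptotic members, Bcl2l1 32.5% ± 1.30, Bcl2a1 9.05% ± 2.33 and Bcl2 4.06% ± 0.545. Ratios were taken within each library as log2((TPM + 0.1)/(TPM + 0.1)) and tested against 0 with limma across the 18987 genes of mean TPM of at least 0.1, 1 fit for each denominator gene. Of 10 pairs examined, 9 differed at an adjusted p under 0.05. Most genes differ in level from any 1 gene, so this share says little about the family: the fits called 94.0% of genes against Bcl2, 94.5% against Bak1, 96.3% against Bid, 96.5% against Bcl2l11, 98.4% against Bcl2l1 and 99.2% against Bax. The sizes are the informative part. Mcl1 exceeded Bcl2 13.4-fold (log2 3.74 ± 0.20; limma adjusted p = 1.20e-08) and Bcl2l1 1.67-fold (log2 0.74 ± 0.06; limma adjusted p = 2.87e-06), in 5 of 5 libraries each. Bcl2l1 exceeded Bcl2 8.00-fold (log2 3.00 ± 0.22; limma adjusted p = 3.83e-08), also in 5 of 5 libraries. Bcl2a1 exceeded Bcl2 2.17-fold (log2 1.12 ± 0.49; limma adjusted p = 0.000415), with the difference as small as 0.29 in replicate 2.

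Of the 2 effectors, Bax was by far the more abundant. Bax, a cytosolic protein that moves to mitochondria when activated, was at 248, 233, 222, 223 and 231 TPM in replicates 1 to 5. Bak1, whose protein sits in the mitochondrial membrane from the start, was at 28.4, 22.4, 26.3, 23.9 and 25.0 TPM. The 2 ranges were far apart, and both genes were highest in replicate 1. Bax exceeded Bak1 9.17-fold (log2 3.20 ± 0.11; limma adjusted p = 2.54e-08; 5 of 5 libraries) and held 90.2% ± 0.694 of their summed TPM. A gene annotated as LOC120098811, which overlaps Bak1 in the GRCr8 annotation, was at 5.19 TPM, 20.6% of the Bak1 level. The strand setting of the quantification is not given in the sources used here, so reads of the overlap may be split between them.

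Set against the effectors by mean TPM, Mcl1 and Bcl2l1 both lay below Bax and above Bak1, and Bcl2 lay below both. The log2 ratio of Bcl2 over Bax was -4.50 ± 0.25 (limma adjusted p = 4.59e-08), Bax being 22.6-fold higher, and that of Bcl2l1 over Bax -1.50 ± 0.07 (limma adjusted p = 9.00e-08), Bax being 2.82-fold higher, in 5 of 5 libraries each. Mcl1, which binds Bak, exceeded Bak1 5.42-fold (log2 2.44 ± 0.15; limma adjusted p = 1.03e-07). Summed by role, the 4 anti-apoptotic members gave 247, 242, 254, 256 and 259 TPM in replicates 1 to 5, and the 2 effectors 277, 255, 248, 247 and 256 TPM. The anti-apoptotic sum was below the effector sum in replicates 1 and 2 and above it in the others, at a mean ratio of 0.982 ± 0.0609. These sums weigh transcripts and not proteins.

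**Figure D2:**
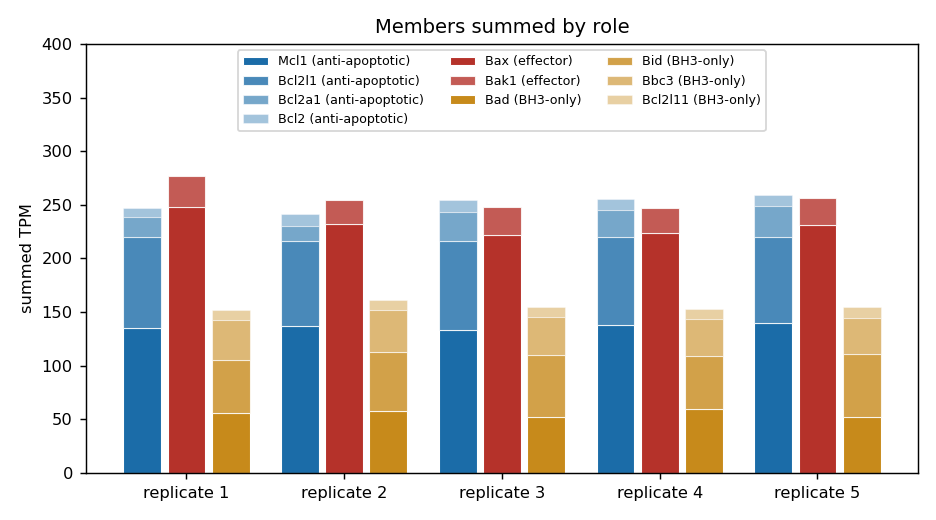
Summed TPM of the members by role (y axis) in each of the 5 libraries (x axis), each bar stacked by gene. Anti-apoptotic bars, mostly Mcl1 and Bcl2l1, and effector bars, mostly Bax, both lie between 242 and 277 TPM, and BH3-only bars between 152 and 161 TPM.

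BH3-only members together stayed below either class, and 2 of them shared the lead. Bad, whose protein is held inactive when survival kinases phosphorylate it, was at 55.8, 57.4, 51.7, 59.9 and 52.3 TPM. Bid, which caspase-8 cleaves to carry a death receptor signal to mitochondria, was at 49.1, 55.1, 58.0, 49.6 and 58.4 TPM. The values of these 2 genes overlapped, and Bad was the higher in 3 of 5 libraries. Bbc3, which encodes the stress-induced killer Puma, was at 38.0, 39.2, 35.5, 34.3 and 34.0 TPM. Bcl2l11, whose product Bim is the BH3-only protein best known from neurons deprived of growth factor, was at 9.39, 9.20, 9.75, 9.10 and 10.4 TPM. The 4 genes summed to 155 ± 3.43 TPM, of which Bad held 35.7%, Bid 34.8%, Bbc3 23.3% and Bcl2l11 6.17%.

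Bbc3 exceeded Bcl2l11 3.75-fold (log2 1.91 ± 0.15; limma adjusted p = 4.79e-07; 5 of 5 libraries). Between Bad and Bid the difference was within the spread of the libraries, at a log2 ratio of 0.04 ± 0.20 with a 95% interval of -0.17 to 0.25 (limma adjusted p = 0.671). Bax, Mcl1, Bcl2l1, Bad, Bid, Bbc3, Bak1, Bcl2a1, Bcl2 and Bcl2l11 is the order of mean TPM from high to low. Of its 9 neighbouring pairs 6 differed at a limma adjusted p under 0.05, where the fits not yet described called 83.9% of genes against Bcl2a1, 96.3% against Bbc3, 96.8% against Bad and 99.0% against Mcl1. Bax exceeded Mcl1 1.69-fold (limma adjusted p = 2.94e-06), Bcl2l1 exceeded Bad 1.48-fold (limma adjusted p = 6.27e-05), Bid exceeded Bbc3 1.49-fold (limma adjusted p = 0.000316) and Bbc3 exceeded Bak1 1.44-fold (limma adjusted p = 0.000563). Besides Bad and Bid, the difference of Bak1 and Bcl2a1 was within the spread (log2 0.19 ± 0.43; 95% interval -0.36 to 0.73; limma adjusted p = 0.532), as was that of Bcl2 and Bcl2l11 (log2 0.08 ± 0.21; 95% interval -0.13 to 0.30; limma adjusted p = 0.380). The order was set from the same values, and the exact sign-flip test over 5 libraries cannot go below p = 0.062.

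The members differed widely in how much they varied between libraries. The coefficient of variation (SD over mean) of TPM was lowest for Mcl1, at 1.94%, and Bcl2l1, at 2.77%, and highest for Bcl2a1, at 28.1%. The median of the 13635 detected genes was 5.59%, and 4 members lay below it (Mcl1, Bcl2l1, Bax and Bcl2l11). For Bcl2l11 this held for gene TPM alone (5.45%), since its named transcript, described below, varied by 8.85%. A share of 4.76% of detected genes varied less than Mcl1, while 98.4% varied less than Bcl2a1. These shares are over genes of all levels and not over genes of like read count. Counting error can be set only against the TPM of named transcripts, whose reads it was taken from. On that basis Mcl1 varied by 2.04%, where counting alone would give 1.64%, and Bcl2a1 by 28.1%, where it would give 8.18%. Bcl2 varied by 15.0%, against 9.98% from counting alone, which rests on 78 to 121 reads per library. Bak1 varied by 8.08% and Bid by 8.31%, against 4.11% and 3.05% from counting alone.

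**Figure D3:**
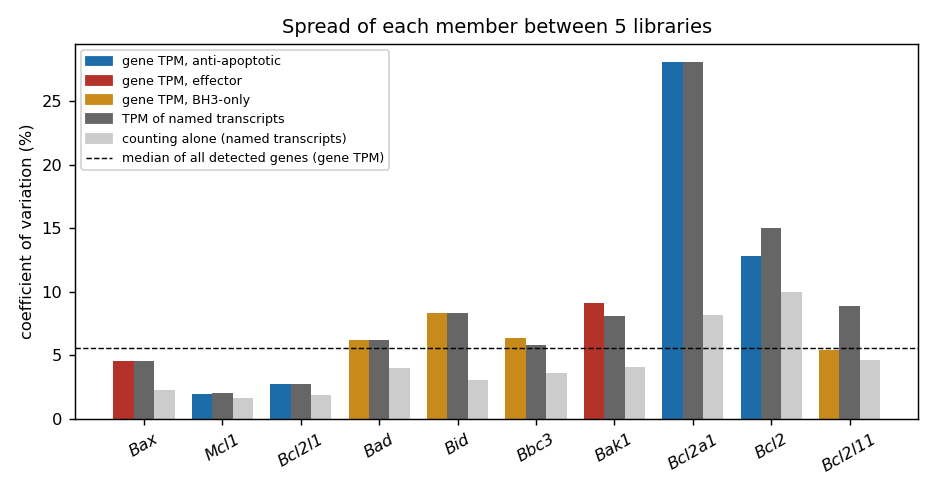
Coefficient of variation in percent (y axis) of each member over 5 libraries, for gene TPM (coloured by role) and the TPM of its named transcripts (dark grey), beside the value that counting the reads of named transcripts alone would give (light grey) and the median of all detected genes (dashed, 5.59%). Bcl2a1, at 28.1%, stands above the other 9 members, which lie between 1.94% and 12.9% for gene TPM.

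Across the libraries Bcl2a1 had the order of the summed macrophage markers, though counting error leaves parts of that order unresolved. Its 95% counting intervals (exact Poisson) ran from 15.6 to 22.3 TPM in replicate 1, 11.1 to 17.1 in replicate 2, 22.9 to 31.1 in replicate 3, 22.0 to 29.3 in replicate 4 and 25.4 to 34.3 in replicate 5. The interval of replicate 2 did not overlap those of replicates 3, 4 and 5. Intervals of replicates 3, 4 and 5 overlapped widely, and their order is not resolved. Those of replicates 1 and 2 overlapped in part, as did those of 1 and 4. Such partial overlap does not by itself show that counting error covers a difference, and these pairs were not tested. The summed TPM of the 7 macrophage markers (C1qa, C1qb, C1qc, Csf1r, Cd68, Aif1 and Mrc1) was 1594, 1195, 1799.9, 1768 and 1894 TPM in the same libraries. Both measures were lowest in replicate 2, then 1, 4 and 3, and highest in replicate 5. All 7 markers were lowest in replicate 2, and 6 of 7 were highest in replicate 5. The full order of the sum was shared by C1qa, Aif1 and Mrc1. C1qb, C1qc and Cd68 were slightly higher in replicate 4 than in replicate 3, and Csf1r was highest in replicate 3. In the summed satellite glia markers replicate 2 was also lowest, then 1, 4, 5 and 3, from 411 to 459 TPM. The neuron, Schwann cell and fibroblast sums were instead highest in replicate 2. Per 1000 TPM of macrophage markers, Bcl2a1 stood at 11.8, 11.6, 14.9, 14.4 and 15.6 TPM, a coefficient of variation of 13.6% in place of 28.1%. The part of macrophages or other cells in the Bcl2a1 difference was not tested, and no correlation is given over 5 libraries.

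A1 is also made by other white blood cells, and markers of neutrophils and lymphocytes were examined too. The part of these cells in the Bcl2a1 level was not tested. Of 5 neutrophil markers, S100a8 was at 3.25 ± 1.73 TPM and Csf3r at 2.48 ± 0.530 TPM, S100a9 (0.657 TPM) and Mpo (0.00672 TPM) were not detected, and Elane had 0 reads, a count that allows at most 0.0626 TPM. Their sum was 4.65, 5.53, 6.20, 5.16 and 10.4 TPM, so it too was highest in replicate 5. None of 5 lymphocyte markers was detected, at 0.0497 to 0.267 TPM in sum. No read was assigned to Cd3d (limit 0.0988 TPM), Cd3e (limit 0.0526 TPM) or Nkg7 (limit 0.0753 TPM), the limit being what 3 reads in all 5 libraries would give, and Ms4a1 was at 0.0783 TPM. Of 3 endothelial markers Cdh5 was at 18.6 TPM, with Pecam1 and Cldn5 not detected, at 0.680 and 0.0967 TPM.

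**Figure D4:**
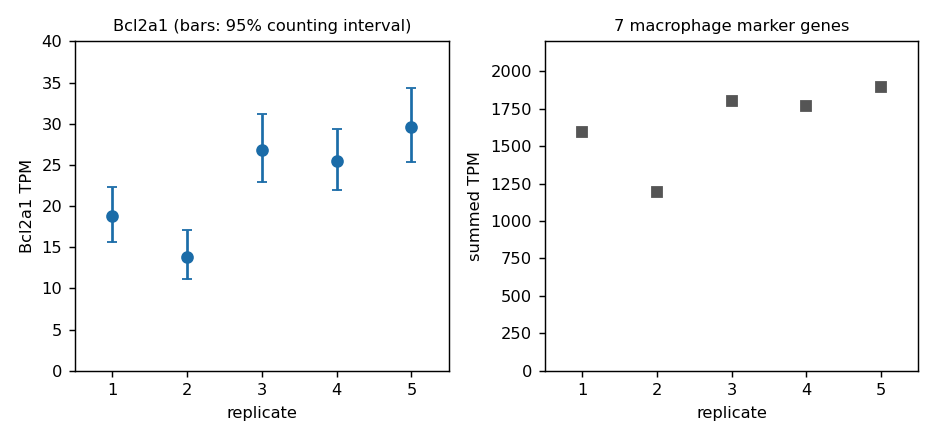
Left, Bcl2a1 TPM (y axis) in each library (x axis) with 95% exact Poisson intervals that cover counting error only. Right, the summed TPM of 7 macrophage marker genes; both are lowest in replicate 2 and highest in replicate 5.

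Transcript files split each gene into RefSeq transcripts, which were joined to symbols by accession. Bax, Mcl1, Bcl2a1, Bcl2 and Bcl2l11 each had 1 named transcript, and Bcl2l1, Bad, Bid, Bbc3 and Bak1 had 12, 5, 4, 4 and 2. Named transcripts carried all of the gene TPM for Bax, Bad, Bid and Bcl2a1, 99.4% for Bcl2l1, 98.8% for Mcl1, 91.1% for Bbc3 and 88.5% for Bak1. They carried 71.8% for Bcl2 (NM_016993.2) and 68.5% for Bcl2l11 (NM_171988.2), and which transcripts carried the remaining share was not traced. Levels of Bcl2 and Bcl2l11 from named transcripts alone were therefore 7.34 and 6.55 TPM. Salmon divides reads that near-identical transcripts share by a model, so these splits are estimates.

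Alternative transcripts were most numerous for Bcl2l1, yet few carried it. NM_001033670.1 held 57.7% ± 3.15 of its named TPM, XM_006235265.4 27.0% ± 1.38 and XM_039104291.1 8.22% ± 3.25. The other 9 held under 5% each, 3 of them listed at 0 in all libraries. XM_039104291.1 was at 11.1, 7.52, 4.49, 4.28 and 6.17 TPM in replicates 1 to 5, although the gene total hardly varied. Whether these transcripts encode the long or the short Bcl-x protein was not examined here.

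Among the pro-apoptotic genes, the transcripts that held at least 5% each numbered 4 for Bad, 3 for Bid and 2 each for Bbc3 and Bak1. For Bad, XM_006230898.4 held 67.3% ± 5.14, NM_022698.2 14.3% ± 3.66, XM_039089714.1 9.59% ± 6.53 and XM_006230897.4 7.32% ± 4.10. XM_039089714.1 was listed at 0 in replicate 1 and reached 9.40 TPM in replicate 3. For Bid, XM_017592880.2 (49.1% ± 6.79) and NM_022684.2 (44.0% ± 4.37) held about equal parts, and XM_039108322.1 (5.20% ± 5.57) was listed at 0 in 2 libraries. For Bbc3, NM_173837.2 held 78.7% ± 6.13 and XM_039080919.1 17.1% ± 4.50. For Bak1, NM_053812.2 held 82.0% ± 3.78 and XM_006256101.4 18.0% ± 3.78.

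**Figure D5:**
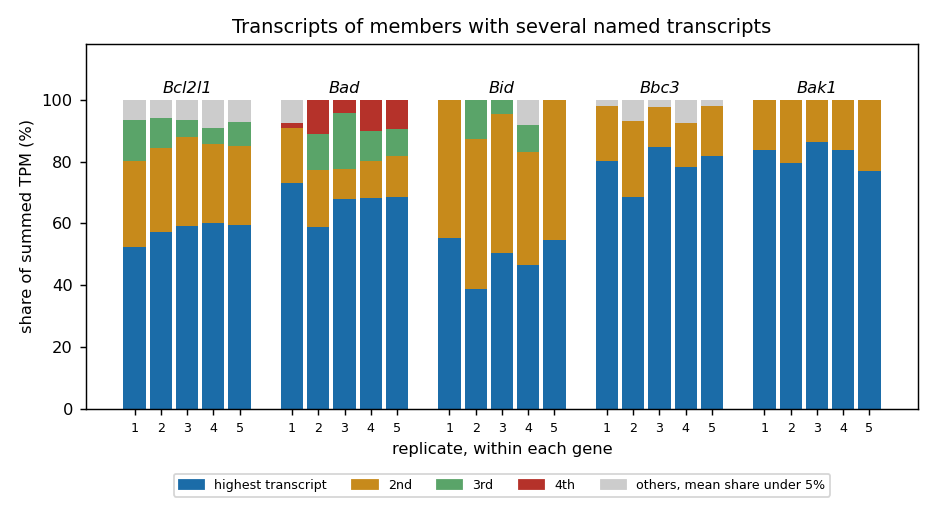
Share in percent of the summed TPM of named transcripts (y axis) in each library (x axis, replicates 1 to 5 within each gene) for the 5 members with several named transcripts, ordered by mean share from the bottom. The highest transcript held between 49.1% (Bid) and 82.0% (Bak1) on average, and the SD of a share between libraries reached 6.79 percentage points for the leading Bid transcript, 6.53 for Bad XM_039089714.1 and 6.13 for the leading Bbc3 transcript.

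Relatives outside the 10 members were in part as abundant as they were. Of 47 further genes of the pathway in 8 lists, 43 (91.5%) were detected, against 41.3% of all genes, with a median of 22.8 TPM. Bcl2l2, which encodes the guardian Bcl-w of mature neurons, was at 49.2 ± 1.32 TPM, while Bcl2l10 was at 0.0685 TPM. Bok, another effector-like gene, was at 84.9 ± 3.15 TPM, above the 25.2 TPM of Bak1. Adding Bcl2l2 and Bok to their classes gave an anti-apoptotic to effector ratio of 0.882 ± 0.0426. Among BH3-only relatives, Pmaip1 (Noxa, a partner of Mcl1) was at 42.6 ± 4.78 TPM, Bmf at 9.65 ± 1.34 TPM (4.86 TPM from named transcripts alone) and Bik at 0.261 TPM, not detected.

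Of the divergent relatives 6 of 8 were detected, led by the mitophagy receptors Bnip3 at 368 ± 36.0 TPM and Bnip3l at 135 ± 6.63 TPM, then Bnip2 at 57.8 ± 3.32 TPM. Bcl2l14 and Bcl2l15 were not detected, at 0.470 and 0.0982 TPM. Downstream of Bax and Bak1, all 9 genes of the apoptosome and mitochondrial release list were detected, led by cytochrome c (Cycs) at 297 ± 9.49 TPM and the outer membrane channels Vdac3 and Vdac2 at 276 ± 2.16 and 258 ± 6.36 TPM. From named transcripts alone Vdac3 was at 144 TPM, below Vdac2 (258 TPM) and Vdac1 (234 TPM). All 5 caspases were detected, with Casp6 at 20.6 ± 0.996 and Casp2 at 18.7 ± 0.675 TPM among them. The 5 inhibitors of apoptosis were detected too, led by Birc2 at 32.4 ± 1.92, Xiap at 21.1 ± 1.16 and Birc6 at 17.7 ± 1.10 TPM. Named transcripts alone gave Birc2 19.1, Birc6 17.7, Birc5 9.46 and Xiap 8.15 TPM, so that Xiap was then the fourth of the 5.

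All 5 genes of death receptor signalling, a route that can act through Bid, were detected, led by the caspase-8 regulator Cflar at 31.7 ± 1.90 TPM, then Fadd at 22.6 ± 2.23 and Ripk1 at 16.1 ± 0.447 TPM. All 8 upstream regulators were detected. Ddit3, the stress factor CHOP, was at 449 ± 33.4 TPM and Jun, an injury factor of sensory neurons, at 377 ± 19.7 TPM.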

How the data were processed

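RNA of 5 libraries (1 group, replicates 1 to 5) was analysed. The submitters' processing notes name Salmon 1.5.1, Trim Galore 0.6.6 and cutadapt 2.8 and the build mRatBN7.2. The authors deposited gene-level TPM. For each of 98811 transcripts, they also deposited its length, TPM and estimated count of reads from Salmon, per the file headers. Of these, 67314 (68.1%) were matched to symbols by accession, without version, in the RefSeq table of GRCr8. No coordinates of that table are given beyond promoter windows. Estimated reads were rounded for scaling factors. Between any 2 libraries, the mean squared difference per gene was at least 4.69 times that of counting noise.

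Ratios were fitted with limma 3.58.1 (R 4.3.3; intercept only, empirical Bayes, pseudocount 0.1 TPM, two-sided, Benjamini-Hochberg over all genes of a fit), a procedure tested on simulated data. The ratio scale understates differences of low genes. Spread was also computed on reads scaled with edgeR 4.0.16 and DESeq2 1.42.0. Members, pairs and lists were chosen with earlier results of these data known. The text names all 10 members, transcripts of at least 5% share, and from each list the 3 highest genes and those not detected. Of the neuron, Schwann cell, satellite glia and fibroblast lists only counts or sums are given, apart from Prph. A few genes picked by this rule are not reported here. The 4 other macrophage markers, Vdac1, Birc5, the overlapping gene and the promoters shown are outside this rule. Intervals and limits for 0 reads (3 reads over the 5 libraries, shortest named transcript) cover counting error only, since reads are not independent molecules. Apart from the macrophage markers, whose order was set beside that of Bcl2a1, no gene is named for a pattern like that of a member, since 5 libraries are fewer than 6.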

Additional observations from a re-analysis of the deposited data

Results flagged for a closer look

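Of 50 sets of 5 values examined (member levels, ratios, leading transcript shares and list sums), 2 held a library set apart from the other 4 by more than 0.71 of the whole range, where chance sets apart about 1 in 20. The log2 ratio of Bbc3 over Bak1 was 0.81 in replicate 2, against 0.42 to 0.52 in the other libraries, since Bbc3 was highest and Bak1 lowest there. The summed TPM of the 5 neutrophil markers was 10.4 in replicate 5, against 4.65 to 6.20 in the others.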

How the results depend on the processing

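The exact sign-flip test, which cannot go below p = 0.062, called 0 of the 10 pairs and 0 of the 9 neighbours, against 9 and 6 with limma. Every pair and neighbour call was kept under pseudocounts of 0.01 and 1 TPM, without a filter, with detected genes alone, with named transcript sums and without each replicate. The log2 ratio of Bad over Bid, not called in any setting, changed sign without replicate 4 (-0.019 to 0.090 over the replicates left out). Of the ratios that were called, Bcl2a1 over Bcl2 ran from 1.00 to 1.59 and Bcl2 over Bax from -4.97 to -4.38 over all settings. All 10 members stayed detected at 0.5 and 5 TPM. Named transcripts alone gave lower levels for Bbc3 (32.9 TPM), Bak1 (22.3 TPM), Bcl2 (7.34 TPM) and Bcl2l11 (6.55 TPM). Which transcripts carried the rest of their gene TPM was not traced. For Bcl2l11 the coefficient of variation was 8.40% (edgeR) and 8.42% (DESeq2) on scaled reads, against 5.45% for its gene TPM; scaled reads cover named transcripts only, whose TPM already varied by 8.85%. As a share of gene TPM, the leading transcript held 98.8% for Mcl1, 71.8% for Bbc3, 72.6% for Bak1, 71.8% for Bcl2 and 68.5% for Bcl2l11. As a share of reads it held 50.8% for Bcl2l1, 65.7% for Bid and 77.5% for Bak1. No paired analysis was possible because there is 1 group; each ratio is already taken within a library. Depth limits Bcl2 and Bcl2a1 most, at 78 to 191 reads per library.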
